A study of Mus musculus with 11 samples.

Results

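The 10 transcription factors described here are Erg, Fli1, Ets1 and Ets2 of the ETS family, Sox7, Sox17 and Sox18 of the SOXF group, the helix-loop-helix factor Tal1, and the zinc finger factors Klf2 and Klf4. They were chosen by name as factors of endothelial identity and of the response to blood flow, and their rows were read from the expression file of each library. All 10 were found among 45886 genes listed, and all 10 were among the 15607 genes tested.

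Messenger RNA on endothelial ribosomes was sequenced in 11 libraries from adult C57BL/6 mice. All groups carried the ribosomal protein L10a fused to enhanced green fluorescent protein (eGFP-L10a), driven by the promoter of VE-cadherin (Cdh5), and an antibody to the fluorescent protein pulled down the tagged ribosomes (translating ribosome affinity purification). The groups were GL261 tumours of Eltd1-/- mice (n = 2), GL261 tumours of wild type mice (n = 3), healthy brains of Eltd1-/- mice (n = 3) and healthy brains of wild type mice (n = 3). GL261 is a mouse glioma cell line, injected here into the brain, and Eltd1, now named Adgrl4, is the deleted gene, which encodes an endothelial receptor of the adhesion family. The pull-down selects cells by the Cdh5 promoter only, so RNA of other cells that stays on the beads is also counted.

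Each library is a separate mouse sample, and its value for a gene is the FPKM (fragments mapped to a gene, scaled to its transcript length and to the mapped fragments of the library), which can be set side by side between genes because it is per length. Differences between groups are log2 changes of FPKM + 1 from limma, and a gene is said to rise or fall where its p-value adjusted over all 15607 genes by Benjamini-Hochberg was under 0.05. In these bulk samples, fewer endothelial cells and less RNA per cell cannot be told apart.

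ETS factors bind a short GGAA core in many endothelial enhancers. ERG and FLI1 keep up the transcription of junction and receptor genes such as Cdh5, while ETS1 is also known from sprouting vessels and from lymphocytes, and ETS2 from many cell types. SOXF factors act with Notch and Wnt signals in the formation of arteries and, in the brain, in barrier vessels. TAL1, best known from blood formation, works in a complex with LMO2 and GATA factors in endothelium and blood cells. KLF2 and KLF4 are induced by laminar flow and drive genes that keep the vessel wall free of clots and leukocytes.

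Klf2 and Klf4 showed the largest differences between tumour and brain among the 10 factors over both genotypes and in knockouts (in wild types Tal1 and Sox7 had larger estimates than Klf4, without passing), and the 250 bases before the start of each are shown for that reason (RefSeq, GRCm38.p6). The table of promoters held 5 of the 10 factors. Klf2 lies on the plus strand of chromosome 8, at chr8:72319062-72321654, and its window is chr8:72318812-72319061. Klf4 lies on the minus strand of chromosome 4, at chr4:55527137-55532475, and its window is chr4:55532476-55532725.
Klf2: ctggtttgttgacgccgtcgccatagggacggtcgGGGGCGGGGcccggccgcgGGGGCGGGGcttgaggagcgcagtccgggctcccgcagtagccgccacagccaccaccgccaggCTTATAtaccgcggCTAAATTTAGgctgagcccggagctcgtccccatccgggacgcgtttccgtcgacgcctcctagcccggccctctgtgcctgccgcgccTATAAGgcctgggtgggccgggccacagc
Klf4: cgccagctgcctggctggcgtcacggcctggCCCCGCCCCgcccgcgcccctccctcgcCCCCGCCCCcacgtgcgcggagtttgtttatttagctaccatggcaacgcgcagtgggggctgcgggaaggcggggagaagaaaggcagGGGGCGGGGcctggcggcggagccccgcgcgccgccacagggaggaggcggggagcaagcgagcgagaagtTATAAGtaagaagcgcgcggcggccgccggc
Capitals mark 3 strings, chosen after the sequences had been read. GGGGCGGGG, searched on both strands, is the GC box of the SP and KLF families. It begins 215 and 196 bases before the start of Klf2, and 219, 191 and 102 bases before the start of Klf4. It was in 10.4% of 32851 promoter windows of this length. CTA and TAG with any 4 bases between them, searched on both strands, is a looser string than the MEF2 core, whose 4 middle bases are A or T. It begins 118 bases before the start of Klf2, where the 4 middle bases are A or T. The looser string was in 3.20% of the windows and is not in the window of Klf4, and the share of the MEF2 core itself was not counted. TATAAG, a string like a TATA box, was searched on both strands. It begins 29 bases before the start of Klf2 and 31 bases before that of Klf4. Its reverse complement begins 132 bases before the start of Klf2. On either strand TATAAG was in 6.65% of the windows. The marked strings do not overlap each other.

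Adgrl4, the targeted gene, was at 11.5 and 5.82 FPKM in knockout tumours, against 45.0, 192 and 27.4 FPKM in wild type tumours. Knockout brains held 21.6, 23.6 and 22.2 FPKM, against 166, 82.7 and 153 FPKM in wild type brains. In both tissues the knockout and wild type values lay apart, with the knockout libraries lower and none of them at 0. Limma gave changes of -2.78 (SE 0.69) in tumour and -2.46 (SE 0.62) in brain, with adjusted p = 0.903 and adjusted p = 1. The summed FPKM of a library ran between 477911 and 641665, and sequencing depth is unknown. Wild type tumour replicate 2 stood apart, with 8979 genes above 0 where the other 10 libraries had 11783 to 15434.

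The 18 pan-endothelial genes used as markers, among them Pecam1, Cdh5, Tie1 and Cldn5, were present in both tissues, though Icam2, Mmrn2 and Ptprb were listed at 0 in wild type tumour replicate 2 and Icam2 also in knockout tumour replicate 1. The list's mean log2(FPKM + 1) was 3.54 to 4.59 in tumours, against 5.53 to 6.10 in brains. Over both genotypes 12 of the 18 fell, against 17.6% of all genes. In knockouts 3 of them fell (2.29% of all genes) and in wild types 8 (11.7%). Markers of other cells moved as well. The summed FPKM of 12 neuron markers was 110.4 to 3118 in tumours, with wild type tumour replicate 3 the highest, against 5053 to 6712 in brains. Of the 12, 11 fell over both genotypes, 1 in knockouts and 10 in wild types. The sum of 12 microglia and macrophage markers was 138 to 336 FPKM in tumours, against 40.7 to 64.6 FPKM in brains. Over both genotypes 9 of the 12 were higher, against 12.6% of all genes. In knockouts 2 of them were higher (4.8% of all genes) and in wild types 3 (7.7%). The sum of 8 glioma and progenitor markers was 1584 to 2409 FPKM in tumours, against 471 to 804 FPKM in brains. Over both genotypes 6 of these 8 were higher and 1 was lower. The part of these cells in the results below was not tested. Fits with the neuron markers as a covariate are given below. The neuron sums of the tissues did not overlap, so those fits cannot tell neuron RNA from tissue.

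Between tumour and brain, Klf2 and Klf4 fell in both genotypes, and no member rose. In knockouts 2 of the 10 factors fell, against 2.29% of all genes tested. In wild types 2 of the 10 fell, against 11.7% of all genes, and with tumour and brain averaged over both genotypes 3 of the 10 fell (Klf2, Klf4 and Sox18), against 17.6% of all genes. Calls in the other direction made up 4.8%, 7.7% and 12.6% of all genes in knockouts, in wild types and in the mean of both, and included no member. The median change of the 10 factors was -0.89, -1.15 and -1.21 in these comparisons, beside -0.18, -0.26 and -0.25 over all genes tested. In wild types and in the mean the members' count is near the share of all genes, so the count is not a result about the 10 factors together. Of all calls, 67.7%, 39.7% and 41.6% were in the direction of higher in tumour. These splits were 85.3%, 52.8% and 51.7% with upper quartile scaling, 63.3%, 52.2% and 50.1% with quantile normalization, and 99.2%, 98.0% and 97.2% after scaling to the pan-endothelial genes. The families differed among themselves, as the plot of FPKM by library shows.

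**Figure D1:**
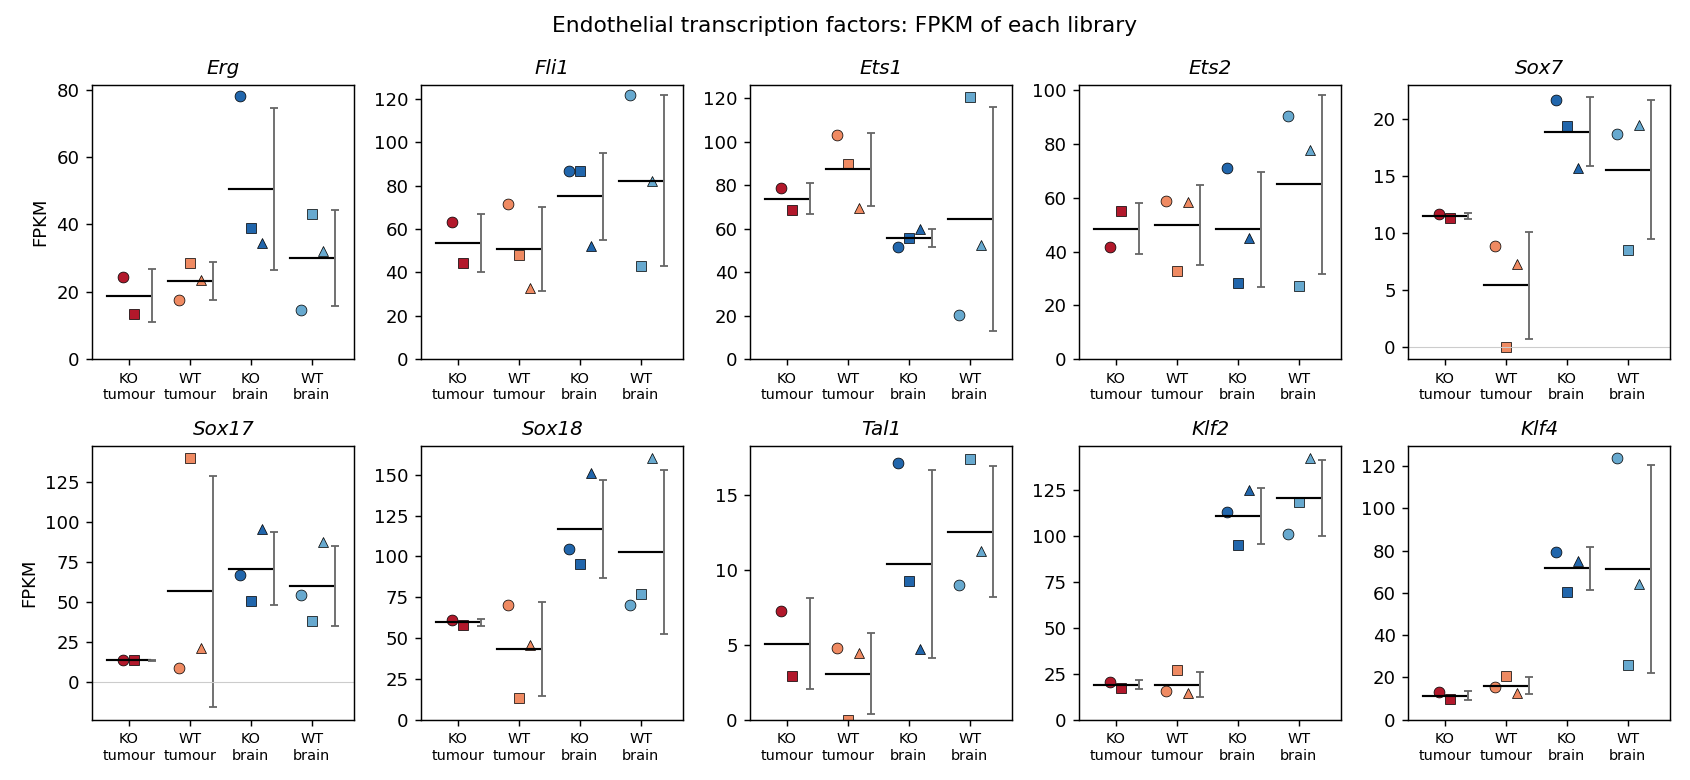
FPKM of the 10 factors in each library (vertical axis, a scale per gene) in knockout tumour, wild type tumour, knockout brain and wild type brain. Symbols are single libraries, horizontal lines are means and bars are 1 SD (n = 2 in knockout tumour, n = 3 elsewhere). The 5 tumour libraries lie below all 6 brain libraries for Klf2 and Klf4, and the Sox17 value of 139.6 in wild type tumour replicate 2 is far above the other tumours.

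Erg, the ETS factor most restricted to endothelium, was at 24.5 and 13.3 FPKM in knockout tumours, at 17.5, 28.6 and 23.4 in wild type tumours, at 78.0, 39.0 and 34.5 in knockout brains, and at 14.7, 43.0 and 32.1 in wild type brains. The tumours lay between 13.3 and 28.6 FPKM. All but 1 of the 6 brains were above them, and wild type brain replicate 1 lay within their range. The log2 change over both genotypes was -0.80 (SE 0.37), and it did not pass (limma, adjusted p = 0.127). Of 11 fits that each left out 1 library it passed in 1, without wild type brain replicate 1 (-1.01, adjusted p = 0.0492). Over the 11 fits the adjusted p ran up to 0.367.

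Fli1, which shares most of its sites with ERG, was at 63.1 and 44.2 FPKM in knockout tumours and at 71.3, 48.1 and 32.6 in wild type tumours, against 86.6, 86.6 and 52.0 in knockout brains and 122, 42.8 and 82.0 in wild type brains. The tissues overlapped in both genotypes, and the log2 change of -0.55 (SE 0.33) did not pass (limma, adjusted p = 0.237). The sum of Erg and Fli1 was 56.0 to 88.8 FPKM in tumours, against 85.8 to 165 FPKM in brains.

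Ets1 was the only member whose estimate lay above 0 in both genotypes, at 0.40 in knockouts and 0.76 in wild types. It was at 78.7 and 68.7 FPKM in knockout tumours and at 103, 89.6 and 69.5 in wild type tumours, against 51.5, 55.6 and 59.8 in knockout brains and 20.1, 121 and 52.3 in wild type brains. Of the 6 brains, 5 were below all 5 tumours, and wild type brain replicate 2 was above all of them. The log2 change of 0.58 (SE 0.39) did not pass (limma, adjusted p = 0.281). Of 11 fits that each left out 1 library it passed in 1, without wild type brain replicate 2 (0.89, adjusted p = 0.0488). Over the 11 fits the adjusted p ran up to 0.516. Lymphocytes also use Ets1. Of 11 genes listed for lymphocytes 4 were tested, and 2 of these, Lck and Ptprc, rose, against 12.6% of all genes. Ptprc is not particular to lymphocytes. The sum of the 11 was 23.3 to 38.9 FPKM in tumours, against 4.10 to 27.0 FPKM in brains, with 3 of them at 0 in all tumours, and their part in the Ets1 values was not tested. Ets2 was at 41.7 and 55.2 FPKM in knockout tumours and at 58.8, 32.6 and 58.4 in wild type tumours, against 71.1, 28.3 and 45.2 in knockout brains and 90.3, 27.3 and 77.7 in wild type brains. Its tumours lay within the range of the brains, with a log2 change of -0.084 (95% confidence interval -0.91 to 0.74; limma, adjusted p = 0.888).

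The 4 ETS genes stand as 2 neighbouring pairs in the mouse genome. Fli1 and Ets1 are 92.8 kb apart on chromosome 9 (chr9:32422204-32543432 and chr9:32636241-32757820, GRCm38), and Erg and Ets2 are 116 kb apart on chromosome 16 (chr16:95359169-95586600 and chr16:95702407-95721049). Within a pair the estimates of tumour minus brain had opposite signs for Fli1 (-0.55) and Ets1 (0.58), and were -0.80 for Erg and -0.084 for Ets2. None of these 4 values passed the test.

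Among the SOXF genes, Sox18, which is active in new vessels and lymphatics (chr2:181669837-181671640, GRCm38), had the highest mean FPKM in brain. It was at 61.0 and 58.3 FPKM in knockout tumours and at 70.6, 13.3 and 45.6 in wild type tumours, against 105, 95.1 and 151 in knockout brains and 70.2, 77.1 and 160.5 in wild type brains. Of the 5 tumours, 4 lay below all brains, and wild type tumour replicate 1 lay just above the lowest brain, at 70.6 against 70.2 FPKM. Sox18 fell by 1.17 on the log2 scale over both genotypes (SE 0.41; limma, adjusted p = 0.0487). The call was lost whenever 1 of the 2 knockout tumours or 1 of the 6 brains was left out. Without 1 knockout tumour that group is 1 library. Over the fits that each left out 1 library the estimate stayed between -1.42 and -0.84. The call held when any 1 wild type tumour was left out (limma, adjusted p 0.0228 to 0.0487). It was also lost with upper quartile scaling (adjusted p = 0.225) and quantile normalization (0.0938), and the sign turned to 0.38 after scaling to the pan-endothelial genes. Further losses came with pseudocounts of 0.1 and 0.5, without a filter and without the variance trend. The same held with the neuron markers or the pan-endothelial mean as a covariate. Both covariates largely follow tissue, so these 2 losses do not tell marker content from tissue.

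Sox17, a factor of arterial identity that responds to Wnt signals in brain vessels (chr1:4490928-4497426), was at 13.8 and 13.5 FPKM in knockout tumours and at 8.91, 139.6 and 21.0 in wild type tumours, against 66.5, 50.4 and 95.2 in knockout brains and 54.1, 38.4 and 87.3 in wild type brains. Wild type tumour replicate 2 was above all 6 brains, and the other 4 tumours were below all of them. The log2 change over both genotypes was -1.56 (SE 0.58) and did not pass (limma, adjusted p = 0.0607). Without wild type tumour replicate 2 it was -2.10 and passed (adjusted p = 0.00155), as did the change in wild types (-1.97, adjusted p = 0.0228). The change in knockouts stayed at -2.24, as that library is not part of it. Its adjusted p went from 0.136 to 0.0155 with the spread and the adjustment, which the fit shares. With library weights the changes of Sox17 in knockouts, in wild types and over both genotypes passed with every library kept. That over both genotypes also passed with quantile normalization, and that in knockouts with only the groups compared in the fit. In the other settings that left out no library none of these changes passed. Each of these changes passed in 1 of 11 fits that left out 1 library. The adjusted p ran up to 0.154 over both genotypes, 0.456 in knockouts and 0.987 in wild types.

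Sox7, the least abundant of the group (chr14:63943706-63950732), was at 11.7 and 11.3 FPKM in knockout tumours and at 8.87, 0 and 7.28 in wild type tumours, against 21.6, 19.4 and 15.7 in knockout brains and 18.7, 8.50 and 19.5 in wild type brains. An exact 0 can be a failed estimate, and wild type tumour replicate 2 lists 0 for 2767 genes that are expressed elsewhere. The log2 change of -1.25 (SE 0.59) did not pass (limma, adjusted p = 0.131). Sox17 made up 10.1% to 28.4% of the summed FPKM of the 3 SOXF genes in 4 of the tumours and 91.3% in wild type tumour replicate 2, against 30.6% to 37.8% in the brains. Sox18 made up 8.70% in that library, 61.8% to 79.9% in the other 4 tumours and 49.1% to 62.2% in the brains. The brain shares were thus close to each other, while 1 tumour library reversed the order of Sox17 and Sox18.

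Tal1 (chr4:115056426-115071755, GRCm38) had the lowest mean FPKM of the 10 factors in each group. It was at 7.23 and 2.92 FPKM in knockout tumours and at 4.81, 0 and 4.45 in wild type tumours, against 17.1, 9.25 and 4.75 in knockout brains and 8.99, 17.4 and 11.3 in wild type brains. The wild type tumours, 1 of them listed at 0, were below the wild type brains, and the knockout groups overlapped. The log2 change of -1.45 (SE 0.58) over both genotypes did not pass (limma, adjusted p = 0.0813).

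Klf2, which flow induces through MEF2 factors, was at 20.7 and 17.5 FPKM in knockout tumours and at 15.6, 27.1 and 14.8 in wild type tumours, against 113, 94.8 and 125 in knockout brains and 101, 118 and 143 in wild type brains. The highest tumour, at 27.1 FPKM, was far below the lowest brain, at 94.8 FPKM, and the tumour mean was 16.5% of the brain mean. Klf2 fell by 2.47 on the log2 scale in knockouts (SE 0.37; limma, adjusted p = 0.00304), by 2.63 in wild types (SE 0.33, adjusted p = 0.000643), and by 2.55 over both (SE 0.25, adjusted p = 4.85e-05). These calls held without any single library, though without 1 knockout tumour that group is 1 library. After scaling to the pan-endothelial genes, the calls in knockouts (-1.14; limma, adjusted p = 0.0850) and in wild types (-0.86, adjusted p = 0.0984) were lost. The call over both genotypes held in that setting (adjusted p = 0.0145). With the neuron markers as a covariate the call in wild types was lost, and with the pan-endothelial mean as a covariate each call was lost. Both covariates largely follow tissue.

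Klf4, which overlaps with KLF2 in its targets, was at 13.1 and 9.82 FPKM in knockout tumours and at 15.4, 20.5 and 12.7 in wild type tumours, against 79.4, 60.3 and 75.2 in knockout brains and 124, 26.0 and 64.2 in wild type brains. All 5 tumours were below all 6 brains, the lowest of which was wild type brain replicate 2. Klf4 fell by 2.55 on the log2 scale in knockouts (SE 0.56; limma, adjusted p = 0.0209), by 1.84 in wild types (SE 0.50, adjusted p = 0.0270), and by 2.19 over both (SE 0.38, adjusted p = 0.00177). The call over both genotypes held when any 1 library was left out. It was lost with the neuron markers as a covariate (-2.58, adjusted p = 0.180), as were those in knockouts (adjusted p = 0.133) and in wild types (0.540). That covariate largely follows tissue, and with it 124 of all genes passed over both genotypes, against 4712 without it. These losses therefore do not tell neuron RNA from tissue. The call in knockouts was lost without any single knockout library. Over the fits that each left out 1 library its estimate stayed between -2.74 and -2.36. Without 1 knockout tumour that group is 1 library. Without 1 knockout brain the calls over all genes in knockouts also fell, from 1106 to between 550 and 563. The call in wild types was lost when replicate 1 or replicate 3 of either wild type tissue was left out (0.0518 to 0.0871), with upper quartile scaling (0.0569), with only the groups compared in the fit (0.128) and without wild type tumour replicates 2 and 3 together (0.124).

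Klf2 and Klf4 together came to 27.3 to 47.6 FPKM in tumours, against 144 to 225 FPKM in brains. Klf2 made up 50.4% to 64.0% of that sum in tumours, against 45.0% to 82.0% in brains, so the shares of the tissues overlapped while the sums lay apart. Of the 10 factors, Klf2 and Klf4 were the 2 whose tumour and brain libraries did not overlap over both genotypes, beside 12.3% of all genes lower and 8.73% higher without overlap. Within genotypes 6 of the 10 were lower and 1 higher without overlap in knockouts (28.6% and 22% of all genes) and 3 were lower in wild types (19.8%, with 12.7% higher).

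Immediate early genes, which cells switch on within minutes of stress or handling and to which KLF2 and KLF4 are often counted, were set beside them. Of 13 such genes 4 were lower over both genotypes and 9 did not pass, with a median change of -0.53. Of all genes tested 17.6% were lower, with a median of -0.25. Egr1 was at 12.5 ± 6.41 FPKM in tumours and 42.1 ± 5.56 in brains (SD, n = 5 and 6; change -1.98; limma, adjusted p = 0.000471), and Dusp1 was at 11.8 ± 5.14 FPKM in tumours and 36.2 ± 8.20 in brains (-1.58, adjusted p = 0.0100). Btg2 (-2.01, adjusted p = 0.00747) and Zfp36 (-1.95, adjusted p = 0.0237) were also lower. The part of these genes' response in the values of Klf2 and Klf4 was not tested.

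**Figure D2:**
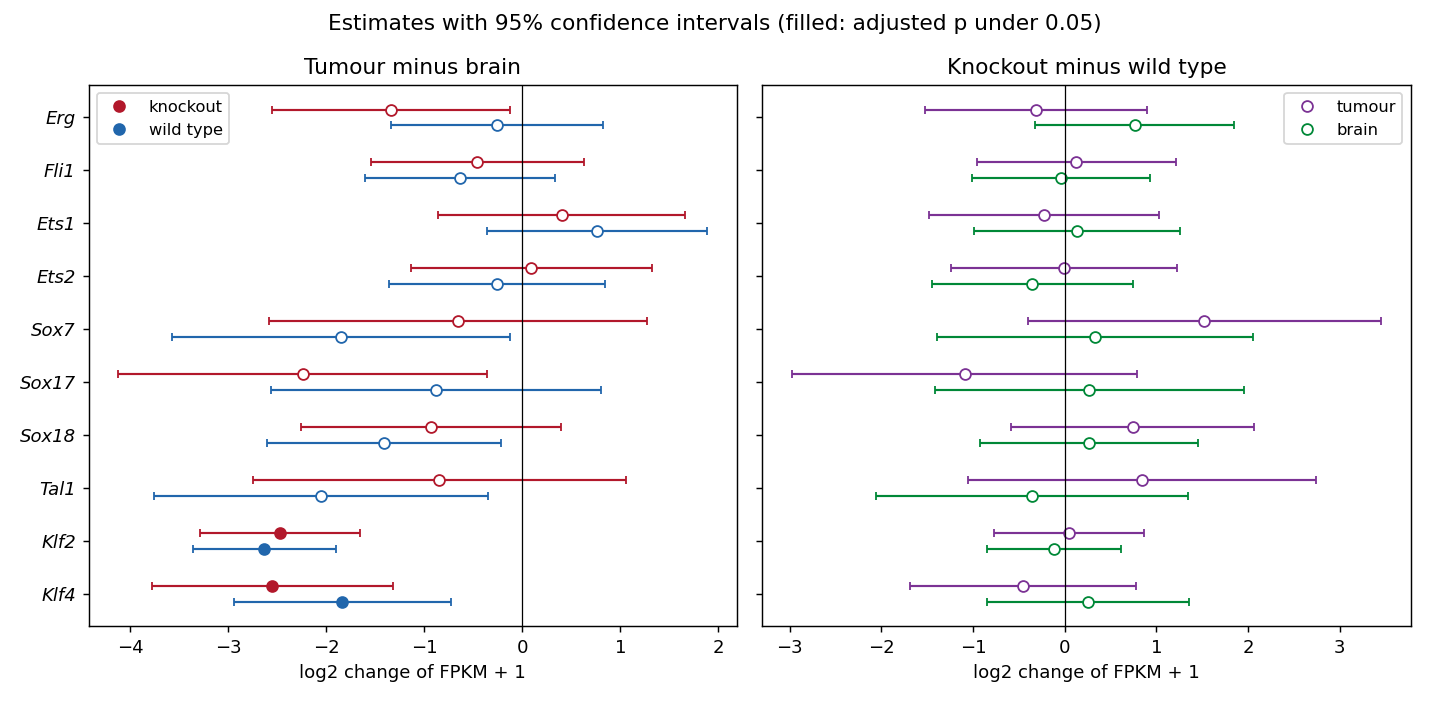
Log2 change of FPKM + 1 for each factor (horizontal axis) with its 95% confidence interval from limma, for tumour minus brain in knockouts and wild types (left) and knockout minus wild type in tumour and brain (right). Filled points passed at an adjusted p under 0.05. Only Klf2 and Klf4 are filled on the left, and none of the 10 is filled on the right.

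By mean FPKM, Ets1 was the most abundant factor of the tumours (81.9 ± 14.5, SD, n = 5) and came sixth in the brains (60.0 ± 32.9, n = 6). Klf2 was the most abundant factor of the brains (116 ± 17.1, n = 6) and came seventh in the tumours (19.1 ± 4.98, n = 5). In the tumours, Fli1 (51.9 ± 15.4), Sox18 (49.8 ± 22.2) and Ets2 (49.3 ± 11.6) came after Ets1, followed by Sox17 (39.4 ± 56.2), Erg (21.4 ± 6.06), Klf2, Klf4 (14.3 ± 3.99), and by Sox7 and Tal1, each with 1 library listed at 0. In the brains, Sox18 (109.7 ± 37.8) came after Klf2, followed by Fli1 (78.6 ± 28.3), Klf4 (71.5 ± 31.8), Sox17 (65.3 ± 22.1), Ets1, Ets2 (56.7 ± 26.8), Erg (40.2 ± 20.9), Sox7 (17.2 ± 4.69) and Tal1 (11.5 ± 4.97). Neighbours in either order overlapped in their libraries. The differences between neighbouring factors were not tested.

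Between the genotypes, 0 of the 10 factors passed in tumour, in brain or in the mean of both tissues, and 0 had an unadjusted p under 0.05 in limma. Of all genes tested, 0.0192% passed in tumour, 0.00641% in brain and 0.00641% in the mean of both tissues, so the count says little of the members. Knockout minus wild type lay between -1.09 (Sox17) and 1.53 (Sox7) in tumour and between -0.36 (Tal1) and 0.76 (Erg) in brain. The 95% confidence intervals reached from -2.98 to 3.45 in tumour and from -2.06 to 2.06 in brain over the 10 factors, which leaves room for differences of several fold. The narrowest intervals were those of Klf2, at 0.042 (95% confidence interval -0.78 to 0.86) in tumour and -0.11 (-0.85 to 0.62) in brain. Sox7 in tumour was the 1 member without overlap, at 11.3 and 11.7 FPKM in knockouts, against 0 to 8.87 FPKM in wild types, and 10.8% of all genes were higher without overlap there. The difference of the genotype effects between the tissues passed for 0 of the 10 factors (0.00641% of all genes), with 0 at an unadjusted p under 0.05 and the smallest unadjusted p at 0.172, for Erg.

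Because the pan-endothelial genes were also lower in tumours, each factor was set against their mean in the same library. After each library was shifted to an equal mean of the 18 genes, the median of all genes tested moved to 1.30, and 50% of all genes were higher over both genotypes. By limma in that setting, Ets1 (2.13, adjusted p = 0.000752), Ets2 (1.47, adjusted p = 0.00709) and Fli1 (1.00, adjusted p = 0.0181) were higher in tumours and Klf2 fell by 1.00 (adjusted p = 0.0145, against 1.45% of all genes lower). Klf4 was at -0.64 (adjusted p = 0.201), with -1.22 in knockouts (adjusted p = 0.166) and -0.064 in wild types (adjusted p = 0.932), and Sox18 at 0.38 (adjusted p = 0.445). Fli1, Ets2 and Sox18 thus changed sign with the scaling, as the values without it were -0.55, -0.084 and -1.17. In wild types Ets1 (2.53), Ets2 (1.52), Erg (1.51) and Fli1 (1.14) were higher in that setting, against 44.4% of all genes. In knockouts 0 of the 10 factors passed in limma, against 23.2% of all genes higher and 0.192% lower, though 3 of them had an unadjusted p under 0.05.

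In single libraries, Ets1 was 1.54 to 2.68 log2 units above the endothelial mean in tumours, against -1.13 to 1.37 in brains, without overlap. Klf2 was -0.38 to 0.99 in tumours, against 0.62 to 1.38 in brains, and Klf4 was -1.15 to 0.61 in tumours, against -0.80 to 1.43 in brains. On this scale 1 of the 10 factors was higher in tumours without overlap, against 33.6% of all genes, and none was lower without overlap, against 0.301% of all genes, so Ets1 does not stand out from genes at large. With the pan-endothelial mean as a covariate in the fit, the change of Klf2 was -2.53 and did not pass (adjusted p = 0.428), nor did any of the 15607 genes, of which 1761 had an unadjusted p under 0.05 in limma. With the neuron markers as a covariate it was -2.93 and passed (adjusted p = 0.0279), while in wild types alone it was -3.11 and did not (adjusted p = 0.133). In wild types 1 of the 15607 genes passed with that covariate. Relative to the median of all genes, the changes of Klf2 were -2.30, -2.29 and -2.37 with no scaling, upper quartile scaling and quantile normalization, which moved that median by 0.15 and 0.19. Those of Ets1 were 0.83, 0.85 and 0.75. Taking off the median removes any shift that all genes share. After scaling to the pan-endothelial genes, which moved the median by 1.55, Klf2 was again at -2.30 on this measure. The closeness of these values therefore does not test whether the change of Klf2 depends on such a shift.

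**Figure D3:**
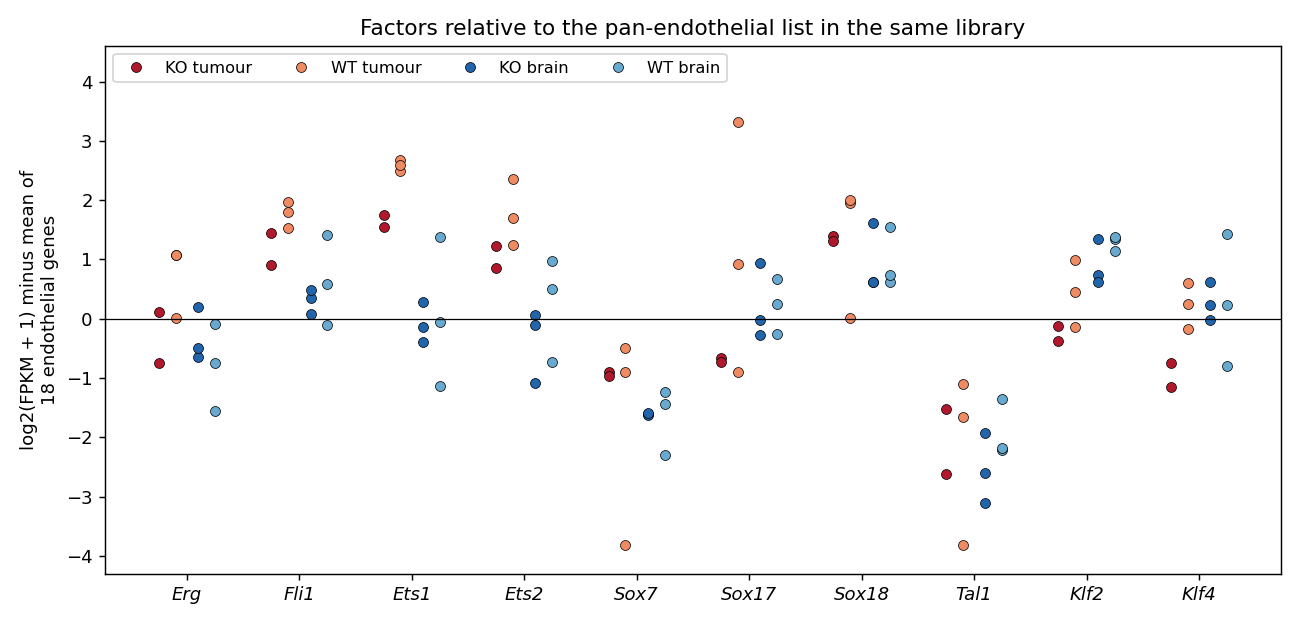
Log2(FPKM + 1) of each factor minus the mean of the 18 pan-endothelial genes in the same library (vertical axis). Each point is 1 library, in the order knockout tumour, wild type tumour, knockout brain, wild type brain. The tumour libraries of Ets1 (1.54 to 2.68) all lie above its brain libraries (-1.13 to 1.37), as do those of 33.6% of all genes on this scale, and the tissues overlap for the other 9 factors.

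The other genes of each family were compared over both genotypes by limma, where 12.6% of all genes were higher and 17.6% lower. Scaling to the pan-endothelial genes adds 1.55 to every change given here, so that changes between -1.55 and 0 turn their sign. Of 22 other ETS genes 14 were tested, and 4 were higher, with a median log2 change of 0.92. Etv6, a repressor also needed for blood stem cells, was at 45.7 ± 14.4 FPKM in tumours and 12.9 ± 5.31 in brains (SD, n = 5 and 6; change 1.80, adjusted p = 0.00625). Erf, another ETS repressor, was at 74.8 ± 14.9 FPKM in tumours and 29.8 ± 11.8 in brains (1.40, adjusted p = 0.00438). Gabpa, a regulator of genes of mitochondria, rose by 1.80 (adjusted p = 0.0169) and Elf4, known from lymphocytes, by 2.14 (adjusted p = 0.00407).

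Of 15 other SOX genes 12 were tested, and 4 were higher and 4 lower. The 4 higher ones were Sox10, Sox6, Sox2 and Sox4, of which Sox10 marks oligodendrocyte lineage cells and Sox2 neural stem cells. Sox10 was at 134 ± 30.5 FPKM in tumours and 13.7 ± 5.89 in brains (SD, n = 5 and 6; change 3.28, adjusted p = 7.61e-05). Of the 8 glioma and progenitor markers 6 were higher in the same libraries, among them Olig2 (3.74) and Vim (2.27), and 1 was lower. The changes of these markers ran from -2.81 to 3.74, and their part in the SOX values was not tested. The 4 lower ones, Sox1, Sox5, Sox13 and Sox21, are named after their values were seen. Summed over the list, the other SOX genes came to 253 to 400 FPKM in tumours, against 142 to 258 FPKM in brains, whereas the SOXF sum was 73.9 to 153 FPKM in tumours, against 124 to 267 FPKM in brains.

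Of 15 other KLF genes 13 were tested, 1 of which was higher and 2 lower, with a median of -0.56. Klf9, a gene induced by glucocorticoids, was at 21.6 ± 12.3 FPKM in tumours and 69.1 ± 8.92 in brains (SD, n = 5 and 6; change -1.91, adjusted p = 0.00439), and Klf12 was at 0 to 10.4 FPKM in tumours, against 21.3 to 43.0 in brains (-2.42, adjusted p = 0.00805). Klf5 was higher, at 5.86 to 12.3 FPKM in tumours, against 0 to 6.53 in brains (1.88, adjusted p = 0.0256). Klf2 and Klf4 thus fell beside 2 of 13 tested relatives.

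Of 14 tested partners of TAL1, 7 were lower and 2 higher. Lmo2, the adaptor of the TAL1 complex, was at 109 ± 34.6 FPKM in tumours and 396 ± 114 in brains (SD, n = 5 and 6; change -1.86, adjusted p = 0.000283), in each tissue above Tal1 on the FPKM scale. Cbfa2t3, a corepressor in that complex, was at 4.24 and 5.26 FPKM in knockout tumours and was listed at 0 in all 3 wild type tumours, against 22.0 to 27.8 FPKM in knockout brains and 22.8 to 75.3 FPKM in wild type brains. A listed 0 can be a failed estimate. Between the genotypes in tumour 0 of the 14 partners passed in limma, against 0.0192% of all genes. Id1, an inhibitor of helix-loop-helix factors that BMP signals induce, was at 48.1 ± 22.8 FPKM in tumours and 189 ± 41.2 in brains (-1.94, adjusted p = 0.000407). Tcf12, a dimer partner of TAL1 found in many cells, rose by 2.07.

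Of 20 tested factors of other families with roles in endothelium, 7 were lower and the other 13 did not pass, with a median of -1.10. Epas1, the hypoxia-inducible factor of endothelium, was at 72.3 ± 14.0 FPKM in tumours and 278 ± 43.5 in brains (SD, n = 5 and 6; change -1.91, adjusted p = 8.86e-05). Lef1, a mediator of Wnt signals, was at 17.8 ± 2.97 FPKM in tumours and 71.7 ± 15.6 in brains (-1.92, adjusted p = 0.000395). Mef2c, which acts upstream of Klf2, was at 23.5 ± 17.1 FPKM in tumours and 128 ± 32.2 in brains (-2.59, adjusted p = 0.00137), and is also a neuronal gene. Foxf2, a factor of brain vessels, fell by 1.55.

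**Figure D4:**
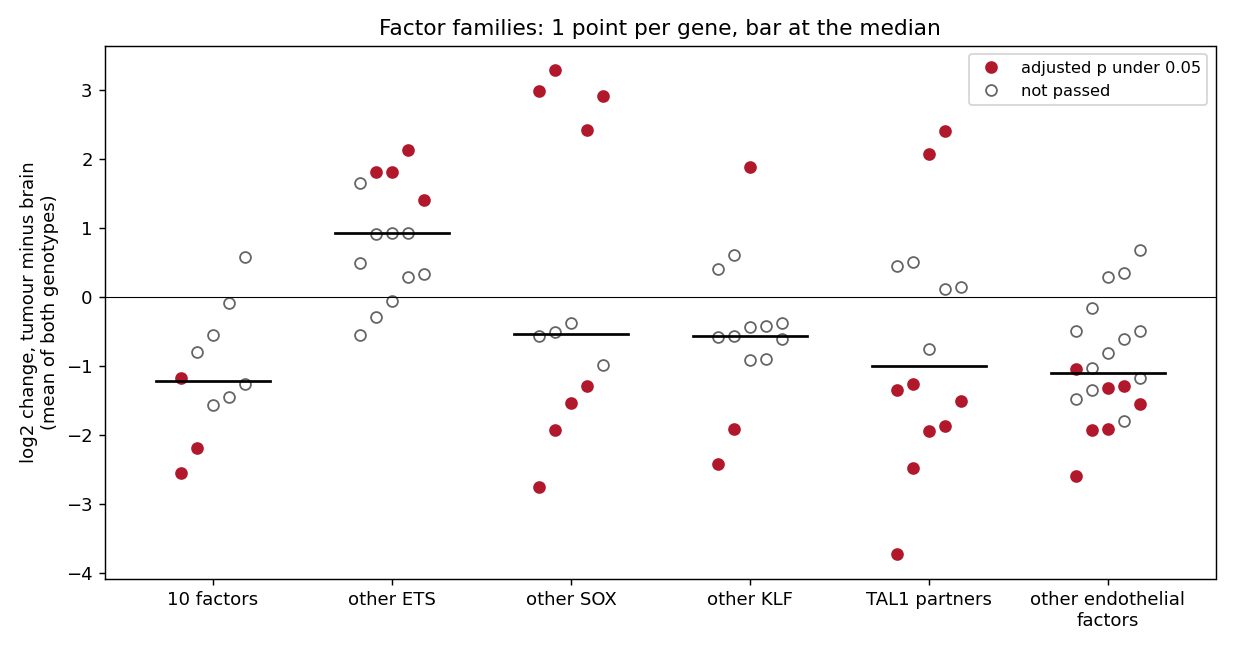
Log2 change of FPKM + 1, tumour minus brain over both genotypes (vertical axis), of the 10 factors, other ETS, SOX and KLF genes, partners of TAL1 and other endothelial factors. Each point is 1 tested gene, filled where the adjusted p was under 0.05, and bars are medians. The median of the 10 factors is -1.21 and that of the other ETS genes is 0.92.

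Known targets of the 3 groups of factors were also counted. The lists share genes, and many of their genes are pan-endothelial markers, so a count does not tell targets from other endothelial genes. Counts and changes are over both genotypes, where 17.6% of all genes were lower, with a median of -0.25. Scaling to the pan-endothelial genes would add 1.55 to these changes too, so those between -1.55 and 0 would turn their sign. Of 15 targets of ETS factors 11 were lower and 4 did not pass (median -1.34). Cldn5, the main claudin of the blood-brain barrier, was at 104 ± 27.9 FPKM in tumours and 412 ± 89.3 in brains (SD, n = 5 and 6; change -1.96, adjusted p = 0.000191). Flt1, a receptor for VEGF, fell by 2.45, Tek, the angiopoietin receptor, by 2.61, and Fzd4, a Wnt receptor, by 2.32.

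Of 13 targets of SOXF factors 4 were lower and 9 did not pass (median -1.20). Besides Cldn5 and Flt1 these were Efnb2, the arterial ephrin, at 0 to 5.35 FPKM in tumours, against 12.3 to 50.2 in brains (change -2.64, adjusted p = 0.00312), and Cdh5 (-1.33, adjusted p = 0.0195). Of 13 tested targets of KLF2 and KLF4, 5 were lower and 8 did not pass (median -0.76). Thbd, the anticoagulant thrombomodulin, was at 0 to 5.21 FPKM in tumours, against 12.3 to 31.9 in brains (-2.87, adjusted p = 0.00297). S1pr1, the receptor for sphingosine phosphate, was at 15.5 ± 10.5 FPKM in tumours and 132 ± 23.1 in brains (SD, n = 5 and 6; change -3.21, adjusted p = 0.000340). Cav1, the coat protein of caveolae, fell by 1.42 (adjusted p = 0.0181). Tek, which is also in the ETS list, was the fourth. Nos3, the endothelial nitric oxide synthase, was the fifth, fell by 1.29 and is named after its value was seen.

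The genes with the profile nearest to each factor over the 11 libraries were found among 10334 genes with a mean FPKM of at least 5, by the root-mean-square difference of centred log2(FPKM + 1). Nearest to Klf2 was Cmtm8 (0.29, beside a median of 1.46 over all genes), at 13.4 ± 2.61 FPKM in tumours and 79.1 ± 23.2 in brains (SD, n = 5 and 6), followed by Nxpe4 and Homer1. Nearest to Klf4 was Gata2 (0.44), at 13.4 ± 3.95 FPKM in tumours and 39.3 ± 11.8 in brains, followed by Tsc22d1 and Cyth3. Nearest to Sox18 was Rasip1 (0.26), a gene of endothelial tube formation, at 21.1 ± 10.0 FPKM in tumours and 39.6 ± 12.1 in brains, followed by Ndufa8 and Trp53inp2.

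For the other factors the nearest were Mkrn2 to Erg (0.36), Ppp1r15a to Fli1 (0.22), Rbm10 to Ets1 (0.22), Dvl3 to Ets2 (0.26), Tgfb1i1 to Sox7 (0.25), Adarb1 to Sox17 (0.47) and Afap1 to Tal1 (0.31). Libraries with many zeros, such as wild type tumour replicate 2, weigh on such a difference. Within the 10 factors the nearest pairs were Sox7 and Sox18 (0.55), Fli1 and Ets2 (0.57), and Klf2 and Klf4 (0.61). The pairs that neighbour each other in the genome were farther apart in profile, with 1.07 for Fli1 and Ets1 and 0.99 for Erg and Ets2.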

How the data were processed

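Ribosome-bound RNA of 11 mouse libraries was analysed from FPKM values as deposited by the authors, in 1 table per library. TopHat2 2.1.1, Cufflinks 2.2.1 and the build GRCm38 are named, per the submitters' processing notes. Each table had 46073 entries, and 363 entries of 176 repeated symbols were summed, which left 45886 genes.

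Tests covered the 15607 genes that reached an FPKM of 1 in 2 or more libraries, on log2(FPKM + 1) with limma 3.58.1 in R 4.3.3. All 11 libraries entered 1 fit of 4 group means with a variance trend, with Benjamini-Hochberg adjustment per comparison and a threshold of 0.05. A change on this scale understates that of low genes. Depth is unknown, since low values were not whole multiples of 1 read. Replicates are separate mouse samples. The fit was tested on simulated data.

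The members, gene lists and tests were chosen with earlier results of these data known. From each list the 4 genes with the smallest p in tumour minus brain over both genotypes were eligible to be named, and for each factor the 3 nearest profiles. Alternatives covered pseudocounts, filters, scaling, covariates, library weights, the variance trend, repeated entries and left-out libraries.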

Additional observations from a re-analysis of the deposited data

How the results depend on the processing

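The estimates of Klf2 and Klf4 stayed below 0 under every alternative run in all 3 tissue comparisons, though that of Klf4 in wild types was -0.064 after scaling to the pan-endothelial genes (adjusted p = 0.932), against -1.84 without it. Among the member factors, 2 passed in knockouts, 2 in wild types and 3 over both genotypes. Leaving out each library in turn, the numbers were 1 to 3, 1 to 3 and 2 to 4. In wild types 1 factor passed with upper quartile scaling and 1 with only the groups compared in the fit. After scaling to the pan-endothelial genes 0 factors passed in knockouts and 4 in wild types. With the pan-endothelial mean as a covariate 0 passed in limma in each, with an unadjusted p under 0.05 for 1, 0 and 1 of the 10. With the neuron markers as a covariate 1 passed in knockouts, 0 in wild types (unadjusted p under 0.05 for 2) and 1 over both. With library weights 4 passed in knockouts and 5 over both genotypes. Pseudocounts, filters, the rule for repeated entries and the variance trend did not change these counts by more than 1. Where 1 was lost over both genotypes in these settings, it was Sox18. Between the genotypes 0 of the factors passed in limma under each alternative, and 0 had an unadjusted p under 0.05, except that without wild type tumour replicate 1 an unadjusted p under 0.05 was reached by 2 factors in tumour and by 1 in the difference of the genotype effects. No paired analysis was possible because the labels give no replicate numbers that pair mice across groups.

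Over all genes tested, the 1106 calls in knockouts became 710 with a pseudocount of 0.1, 1822 with quantile normalization, 3651 after scaling to the pan-endothelial genes, 152 with the neuron markers as a covariate, 4124 with library weights, 2750 without wild type tumour replicates 2 and 3, 2802 with only the groups compared and 163 to 1997 without single libraries. The 3025 calls in wild types became 1927 with upper quartile scaling, 7071 after scaling to the pan-endothelial genes, 1 with the neuron markers, 4929 with library weights, 614 with only the groups compared and 1793 to 3875 without single libraries. The 4712 calls over both genotypes became 8032 after scaling to the pan-endothelial genes, 124 with the neuron markers and 2533 to 5169 without single libraries. With the pan-endothelial mean as a covariate limma called 0 genes in knockouts, in wild types and over both, with 1774, 1623 and 1761 at an unadjusted p under 0.05. Calls between the genotypes ran up to 62 in tumour and 4 in brain.

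Signs turned for factors that had not passed, apart from Sox18, and the cause was not tested. With upper quartile scaling, tumour minus brain over both genotypes was 0.080 for Ets2, and knockout minus wild type in tumour was 0.087 for Ets1 and 0.30 for Ets2, and knockout minus wild type in brain was 0.18 for Fli1 and 0.11 for Klf2. In the same setting, knockout minus wild type over both tissues was 0.22 for Ets1, 0.084 for Ets2, 0.23 for Klf2 and 0.16 for Klf4. With quantile normalization, tumour minus brain over both genotypes was 0.085 for Ets2, and knockout minus wild type in tumour was 0.055 for Ets2, and knockout minus wild type in brain was 0.055 for Fli1 and 0.014 for Klf2. In the same setting, knockout minus wild type over both tissues was 0.067 for Ets1, -0.073 for Tal1 and 0.024 for Klf2. After scaling to the pan-endothelial genes, tumour minus brain in knockouts was 0.87 for Fli1, 0.67 for Sox7, 0.40 for Sox18 and 0.48 for Tal1, and tumour minus brain in wild types was 1.51 for Erg, 1.14 for Fli1, 1.52 for Ets2, 0.89 for Sox17 and 0.36 for Sox18, and tumour minus brain over both genotypes was 0.75 for Erg, 1.00 for Fli1, 1.47 for Ets2, 0.30 for Sox7, 0.38 for Sox18 and 0.10 for Tal1. In the same setting, knockout minus wild type in tumour was -0.59 for Fli1 and -0.68 for Klf2, and knockout minus wild type in brain was -0.14 for Ets1, -0.011 for Sox17, -0.017 for Sox18 and -0.020 for Klf4, and knockout minus wild type over both tissues was -0.27 for Erg, -0.46 for Fli1 and -0.26 for Tal1, and the difference of the genotype effects between the tissues was -0.27 for Fli1, -0.097 for Ets2 and -0.29 for Klf2. With the pan-endothelial mean as a covariate, tumour minus brain in knockouts was 1.54 for Fli1, 0.70 for Sox7, 0.17 for Sox18 and 0.82 for Tal1, and tumour minus brain in wild types was 0.47 for Erg, 2.03 for Fli1, 0.75 for Ets2, 0.059 for Sox18 and 0.17 for Tal1, and tumour minus brain over both genotypes was 1.79 for Fli1, 0.80 for Ets2, 0.33 for Sox7, 0.12 for Sox18 and 0.50 for Tal1. In the same setting, knockout minus wild type in tumour was -0.96 for Fli1 and -0.059 for Tal1, and knockout minus wild type over both tissues was -0.71 for Fli1, 0.25 for Sox17 and -0.38 for Tal1, and the difference of the genotype effects between the tissues was -0.49 for Fli1. With the neuron markers as a covariate, tumour minus brain in knockouts was 0.050 for Sox7, and tumour minus brain in wild types was 0.20 for Ets2, and tumour minus brain over both genotypes was 0.29 for Ets2. In the same setting, knockout minus wild type over both tissues was 0.060 for Ets1 and 0.051 for Klf2. With library weights, knockout minus wild type in tumour was -0.26 for Fli1, 0.22 for Sox17 and -0.038 for Sox18, and knockout minus wild type over both tissues was -0.21 for Fli1, 0.16 for Sox17, -0.0052 for Sox18, -0.18 for Tal1 and 0.024 for Klf2, and the difference of the genotype effects between the tissues was -0.11 for Fli1, 0.11 for Sox17 and -0.065 for Sox18. With wild type tumour replicates 2 and 3 left out together, tumour minus brain in wild types was 0.025 for Ets2, and tumour minus brain over both genotypes was 0.057 for Ets2, and knockout minus wild type in tumour was 0.044 for Erg, -0.43 for Fli1, 0.57 for Sox17, -0.24 for Sox18 and -0.033 for Tal1. In the same setting, knockout minus wild type over both tissues was -0.24 for Fli1, 0.42 for Sox17, -0.20 for Tal1 and 0.078 for Klf2, and the difference of the genotype effects between the tissues was -0.38 for Fli1, 0.30 for Sox17 and -0.50 for Sox18.

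Leaving out single libraries turned these estimates. The range for tumour minus brain in knockouts was -0.24 to 0.41 for Ets2. The range for tumour minus brain in wild types was -0.78 to 0.062 for Ets2 and -0.69 to 0.058 for Erg. The range for tumour minus brain over both genotypes was -0.35 to 0.078 for Ets2. The range for knockout minus wild type in tumour was -0.15 to 0.40 for Fli1, -0.28 to 0.19 for Ets2, -0.11 to 0.31 for Klf2 and -0.73 to 0.10 for Erg. The range for knockout minus wild type in brain was -0.45 to 0.30 for Fli1, -0.77 to 0.056 for Tal1, -0.51 to 0.75 for Ets1, -0.025 to 0.53 for Sox7, -0.0086 to 0.57 for Sox17, -0.32 to 0.78 for Klf4 and -0.23 to 0.012 for Klf2. The range for knockout minus wild type over both tissues was -0.16 to 0.21 for Fli1, -0.17 to 0.51 for Tal1, -0.37 to 0.26 for Ets1, -0.11 to 0.096 for Klf2, -0.83 to 0.13 for Sox17 and -0.39 to 0.16 for Klf4. The range for the difference of the genotype effects between the tissues was -0.17 to 0.57 for Fli1, -0.19 to 0.97 for Sox18 and -0.98 to 0.28 for Ets1. The depth behind these FPKM values is unknown, knockout tumour has 2 libraries, and a listed 0 in wild type tumour replicate 2 cannot be told apart from a failed estimate.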

Other observations

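Markers of further cell types were measured in the same libraries and are given as values. Their counts are over both genotypes, where 12.6% of all genes were higher and 17.6% lower. Of 8 oligodendrocyte markers 6 were lower in tumour over both genotypes, with summed FPKM of 280 to 859 in tumours, against 848 to 1103 in brains. Of 8 astrocyte markers 4 were lower and 1 higher, with sums of 282 to 730.4 FPKM in tumours, against 932 to 1610.1 FPKM in brains. Of 7 tested mural cell markers 1 was higher, with sums of 18.8 to 75.1 FPKM in tumours, against 6.94 to 30.6 FPKM in brains. Of 5 tested fibroblast markers 2 were higher, with sums of 17.8 to 60.1 FPKM in tumours, against 10.7 to 53.7 FPKM in brains. Of 3 tested erythrocyte markers 1 was lower, with sums of 0 to 3.23 FPKM in tumours, against 4.91 to 44.2 FPKM in brains.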
